A study of Mus musculus with 4 samples.

Results

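Transcripts of 38 genes that build cell-to-cell junctions were described in bulge cells of mouse skin: cadherins, protocadherins, the giant cadherins of the FAT, Dachsous and CELSR families, the cadherins and plaque proteins of desmosomes, and the catenins, with the junction protein Lmo7. The genes were listed by family name out of 55536 genes in the count table. Pcdh20 and Lmo7 were in addition noted as lower in knockout libraries when the list was drawn up, so every knockout to control difference of the listed genes is given as a description and without a p-value.

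The knockout group held 2 libraries from C57BL/6 mice carrying Cdh5CreERT2 and Alk1 flox/flox, in which a tamoxifen-activated Cre recombinase driven by the endothelial Cdh5 promoter removes Alk1 (Acvrl1), a receptor of the BMP and TGF-beta family. The control group held 2 libraries from C57BL/6 littermates without Cre. All mice, controls included, received tamoxifen by intraperitoneal injection (100 µg per g of body weight) at postnatal day 17, and bulge cells were taken on postnatal day 20. The titles speak of mice in the plural, and the labels do not say how many animals gave each library, so the spread between libraries may be partly technical.

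Cadherins are calcium-dependent adhesion proteins that bind each other across the gap between neighbouring cells. Classical cadherins hold adherens junctions through beta-catenin and alpha-catenin, which connect to actin, whereas desmogleins and desmocollins hold desmosomes through plakoglobin, plakophilins and desmoplakin, which connect to keratin filaments. FAT, Dachsous and CELSR proteins act in planar polarity and growth control. In the hair follicle, E-cadherin and P-cadherin are the classical cadherins of the epithelium, and desmosomes give the stem cell niche its mechanical strength.

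Libraries held 22261317 and 21237843 counts in knockouts and 16326906 and 29130974 in controls. Bulge keratinocyte markers were abundant in every library: Krt15 ranged from 29090 to 36020 CPM (counts scaled to the effective library size) and Cd34 from 1328 to 1949 CPM. Summed CPM of 8 blood endothelial markers was 5.47 and 16.04 in knockouts and 10.4 and 5.86 in controls, with the endothelial cadherin Cdh5 at 1.38 CPM or less. Most of the knockout 2 sum was Tek, at 10.6 CPM, while Pecam1 and Cdh5 were highest in control 1. The targeted gene Acvrl1 measured 17.9 and 23.1 CPM in knockouts and 21.6 and 24.3 CPM in controls, in cells that are not those in which Cre is driven, so it does not check the labels. Markers of interfollicular differentiation were not even across libraries: the sum of 8 such genes was 10410 and 5250 CPM in knockouts and 14690 and 5669 CPM in controls, highest in control 1. Sebaceous markers were in sum 303 and 212 CPM in knockouts and 498 and 221 CPM in controls, with 7 of 8 genes below 0 on the log2 scale. The sum of 6 markers of the inner bulge and upper follicle was 2860 and 2544 CPM in knockouts and 2173 and 1929 CPM in controls. Of these, 0 of 6 genes were below 0, and the median log2 fold change was 0.33. Singly, Krt17 and Krt75 were free of overlap between groups, while Krt6a, Krt79, Fst and Timp3 overlapped. Krt6a was at 1238 and 717 CPM in knockouts and 703 and 739 CPM in controls.

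For the 2 genes noted as lower, the DNA just before the RefSeq transcription start is shown first (GRCm38.p6; the RefSeq table held a start for 17 of the 38 genes). The table gave 2 starts for Lmo7, of which the first along the gene was used; it lies 29 bases upstream of the GENCODE start. The Lmo7 stretch lies on the plus strand at chr14:101729815-101729927, and the Pcdh20 stretch on the minus strand at chr14:88471397-88471646. Capitals mark the GC box GGGCGG and the CCAAT box, both common elements of core promoters, searched on both strands.
Lmo7: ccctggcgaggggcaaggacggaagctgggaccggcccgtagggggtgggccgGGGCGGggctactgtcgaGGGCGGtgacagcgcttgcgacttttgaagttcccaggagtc
Pcdh20: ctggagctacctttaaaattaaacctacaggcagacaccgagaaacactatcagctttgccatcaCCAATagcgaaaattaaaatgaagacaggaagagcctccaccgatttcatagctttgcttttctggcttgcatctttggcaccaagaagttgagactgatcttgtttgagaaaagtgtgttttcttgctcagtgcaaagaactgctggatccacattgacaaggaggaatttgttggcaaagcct

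The 2 stretches are unlike in composition. The Lmo7 stretch had a GC content of 69.9%, higher than 83.7% of all 32851 promoter windows of that length, and held GGGCGG 2 times, a motif found in 25.9% of such windows. The Pcdh20 stretch of 250 bases had a GC content of 42.4%, higher than 16.9% of windows, and held CCAAT 1 time, found in 33.8% of windows. The TATA box TATAAA was in neither stretch, on either strand; it occurs in 6.05% of promoter windows as long as the Lmo7 stretch and in 12.4% of windows as long as the Pcdh20 stretch. The E-box CAGGTG, which SNAIL and ZEB repressors bind, was in neither and occurs in 7.99% and 17.2% of such windows. The palindrome GGCGCC, a site of BMP-activated SMADs, was in neither and occurs in 5.78% and 9.59%.

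Levels of different genes were compared as CPM per kilobase of exon. Desmosomal genes filled most of the top of the order. Perp, a tetraspan membrane protein of desmosomes, led at 2526 ± 153 CPM per kb in knockouts and 1816 ± 179 in controls (SD, n = 2 each). Desmoplakin (Dsp), which ties the plaque to keratins, came second at 539 ± 47 CPM per kb in knockouts and 616 ± 32 in controls. Together Perp and Dsp made up 63.6% and 65.9% of the summed CPM per kb of the listed genes in knockouts and 59.6% and 57.5% in controls.

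Below them, with means over the 4 libraries, came Dsc3 (324 CPM per kb), Ctnnb1 (242), Pkp3 (218), Dsg3 (163), Cdh1 (142), Jup (133), Pkp1 (129) and Ctnna1 (110), which complete the 10 genes over 100 CPM per kb. From Ctnnb1 down to Ctnna1, the library ranges of each neighbouring pair overlapped except between Pkp3 and Dsg3, so their order within this stretch is not firm. With the longest transcript in place of the union of exons as the length, the same 10 genes were the highest. A further 15 genes lay from 1 to 100 CPM per kb and 13 below 1.

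**Figure D1:**
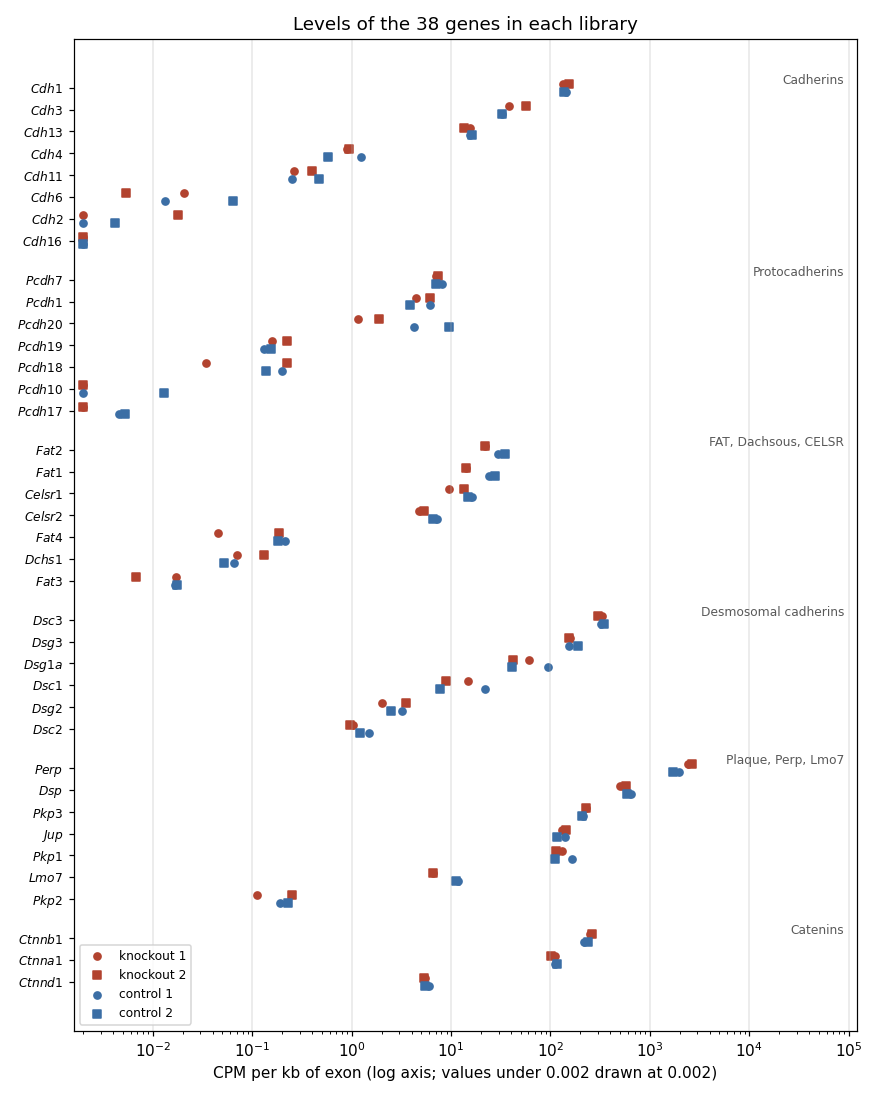
Level of each of the 38 genes in each library, as CPM per kb of exon on a log axis (knockout red, control blue; circles library 1, squares library 2), grouped by role and ordered by mean level. Perp, Dsp, Dsc3 and Ctnnb1 sit at the right, and values under 0.002 CPM per kb, zeros included, are drawn at 0.002.

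In the fit across all genes, 32 of the 38 genes passed the filter on low counts and were tested. Cdh2, Cdh6, Cdh16, Pcdh10, Pcdh17 and Fat3 did not pass, with no more than 17 counts in any library. With edgeR's quasi-likelihood test and Benjamini-Hochberg adjustment over 14259 genes, 0 of the 32 had an adjusted p under 0.05, against 0.00701% of all tested genes. At an unadjusted p under 0.05, 5 were lower (5.94% of all tested genes) and 2 were higher (4.80%). DESeq2 called 3 lower (Pcdh20, Fat1 and Lmo7; 0.540% of all genes it tested) and 0 higher (0.262%), and limma-voom called 0. With the replicate number as a block, edgeR called the same 3 lower (0.568%). Without a count filter it called 4 lower (Pcdh20, Fat1, Fat2 and Lmo7; 1.11%) and 1 higher (Cdh3; 0.678%). Because this contrast helped choose the list, nothing is read from these counts.

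Of the 32 genes, 22 had a log2 fold change (knockout over control) below 0, which is 68.8%, against 52.5% of all tested genes. Their median log2 fold change was -0.13, against -0.02 for all tested genes. Both knockout libraries lay below both controls for 8 of the 32 (25.0%), against 23.6% of all tested genes, and above both for 6 (18.8%), against 21.3%. These shares are close to those of all genes, so lack of overlap between groups is not a result about the listed genes.

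**Figure D2:**
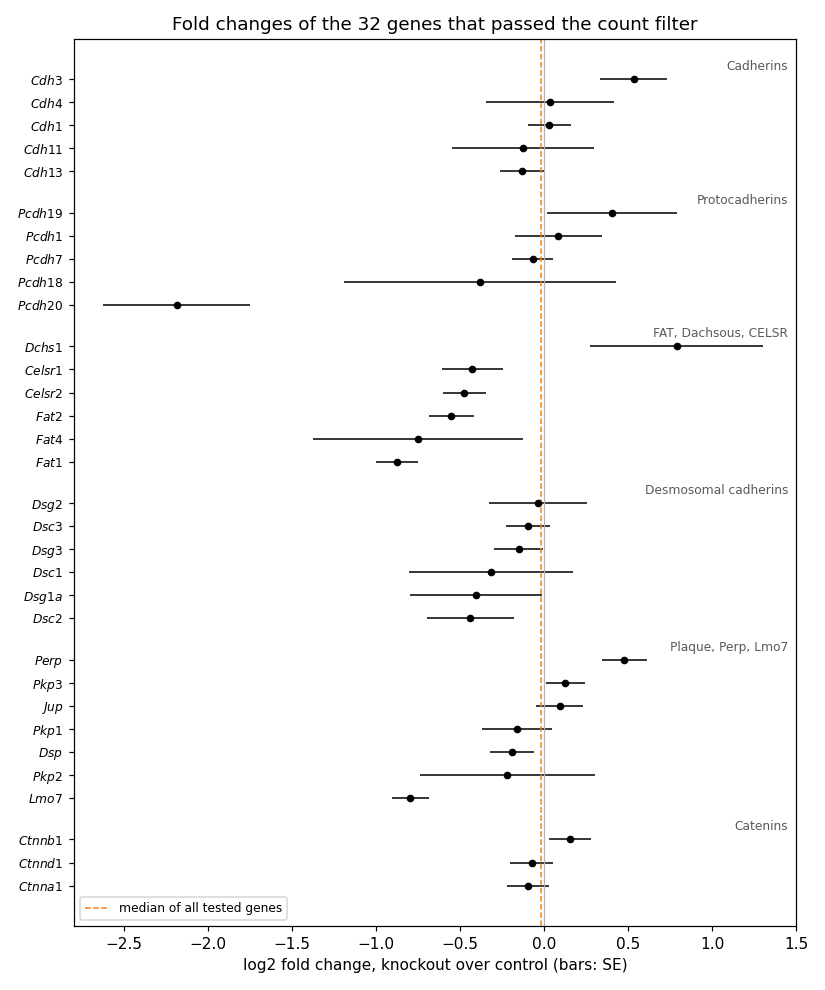
Log2 fold change, knockout over control, of the 32 genes that passed the count filter, with bars of 1 SE, grouped by role; the dashed orange line is the median of all tested genes (-0.02). Pcdh20 lies farthest to the left at -2.19, Lmo7 and Fat1 lie near -0.80 and -0.88, and Cdh3 and Perp lie to the right at 0.53 and 0.48.

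Among classical and related cadherins, E-cadherin (Cdh1) was the most abundant and differed little between groups, while P-cadherin (Cdh3) was higher in knockouts. Cdh1 (ENSMUSG00000000303, chromosome 8, 106603351 to 106670246, GRCm38) measured 614 and 699 CPM in knockouts and 658 and 627 CPM in controls, a log2 fold change of 0.03 ± 0.13 (SE). Cdh3 (ENSMUSG00000061048), which lies beside it at 106510891 to 106557297, measured 166 and 247 CPM in knockouts and 143 and 142 CPM in controls. Both knockout values of Cdh3 were above both controls, knockout 2 the more so. Its log2 fold change was 0.53 ± 0.20, and 0.22 without knockout 2.

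The balance of the 2 cadherins can be read within each library, where depth cancels. Cdh3 made up 21.99% and 26.9% of the summed Cdh1 and Cdh3 CPM per kb in knockouts and 18.5% and 19.2% in controls. T-cadherin (Cdh13), which is anchored by a lipid and lacks the catenin-binding tail, measured 176 and 150 CPM in knockouts and 174.7 and 183 CPM in controls, with overlapping groups and a log2 fold change of -0.13 ± 0.13. It was 0.05 with the trend on exon length and GC content removed.

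Other classical cadherins were scarce. R-cadherin (Cdh4) averaged 6.66 ± 0.13 CPM in knockouts and 6.58 ± 3.31 CPM in controls, and Cdh11, a cadherin of mesenchymal cells, 2.94 ± 0.85 CPM in knockouts and 3.17 ± 1.36 CPM in controls (SD, n = 2 each). Summed CPM of 8 dermal fibroblast markers was 136 and 140 in knockouts and 183 and 233 in controls, with Twist2 at 0. Most of each sum was Col1a1 and Col1a2, so it does not speak for the whole list. Of the 5 tested, 3 were below 0, while Dcn and Col3a1 had log2 fold changes of 1.03 and 0.84, at 3.26 CPM or less. The part of these markers in the Cdh11 counts was not tested. N-cadherin (Cdh2) had 0 and 3 counts in knockouts and 0 and 1 in controls, Cdh6 had 4 and 1 in knockouts and 2 and 17 in controls, and the kidney cadherin Cdh16 had 0 in every library.

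Protocadherins lack catenin-binding sites, and the listed ones were sparse apart from Pcdh7, Pcdh1 and Pcdh20. Pcdh20, a delta-protocadherin (ENSMUSG00000050505, chromosome 14, 88464743 to 88471396, GRCm38), measured 6.30 and 10.4 CPM in knockouts and 23.2 and 52.7 CPM in controls. Both knockout libraries were below both controls, and the controls differed from each other by 2.27-fold. The log2 fold change was -2.19 ± 0.44, a 4.56-fold lower level. Without control 2 it was -1.45.

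Pcdh7 measured 74.8 and 77.8 CPM in knockouts and 84.9 and 75.2 CPM in controls, and Pcdh1 39.1 and 53.5 CPM in knockouts and 53.9 and 33.9 CPM in controls, so that both overlapped between groups. Pcdh7 shares 21.1% of its exon bases with a transcript on the other strand, 4932441J04Rik, which was at 1.47 to 1.68 CPM. Pcdh19, an X-linked adhesion gene, measured 1.66 and 2.35 CPM in knockouts and 1.38 and 1.63 CPM in controls (log2 fold change 0.40 ± 0.39). Pcdh18 averaged 0.69 ± 0.72 CPM in knockouts and 0.91 ± 0.24 CPM in controls. Pcdh10 had 0 counts in both knockouts and 0 and 6 in controls, and Pcdh17 had 0 in both knockouts and 1 and 2 in controls.

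The FAT, Dachsous and CELSR genes are long: all 6 that were tested are in the longest decile of exon length, whose median log2 fold change over all genes was -0.19. Fat1, Fat2, Celsr1 and Celsr2 had both knockout libraries below both controls, as had 23.6% of all tested genes. The summed CPM of the family was 700 and 758 in knockouts and 1079 and 1183 in controls, and most of that sum was Fat1 and Fat2. Fat1 (ENSMUSG00000070047, chromosome 8, 44935447 to 45052257, GRCm38), which organizes actin at cell contacts and restrains growth signals, measured 219 and 223 CPM in knockouts and 381 and 431 CPM in controls. Fat2 (ENSMUSG00000055333, chromosome 11, 55250609 to 55336564), an epithelial relative, measured 318 and 322 CPM in knockouts and 431 and 510 CPM in controls. For both genes the knockout libraries were nearly equal and the groups far apart. The log2 fold changes were -0.88 ± 0.13 for Fat1 (1.84-fold lower) and -0.56 ± 0.13 for Fat2 (1.47-fold lower).

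Fat1 and Fat2 also differed in proportion: Fat1 made up 39.0% and 39.1% of the summed Fat1 and Fat2 CPM per kb in knockouts and 45.1% and 44.0% in controls. CELSR proteins are seven-pass cadherins of planar polarity, and Celsr1 orients hair follicles in mouse skin. Celsr1 measured 106 and 148 CPM in knockouts and 178 and 163 CPM in controls (log2 fold change -0.43 ± 0.18). Celsr2 measured 54.4 and 60.8 CPM in knockouts and 84.0 and 76.2 CPM in controls, with both knockouts below both controls and a log2 fold change of -0.48 ± 0.13.

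Fat4 and Dchs1 form a receptor and ligand pair, and both were near the limit of detection. Dchs1 had 17 and 30 counts in knockouts and 12 and 17 in controls, and Fat4 had 17 and 67 in knockouts and 61 and 91 in controls. Their log2 fold changes were 0.79 ± 0.51 for Dchs1 and -0.75 ± 0.63 for Fat4. Both rested on single libraries: Fat4 was -0.07 without knockout 1 and -2.09 without knockout 2, and Dchs1 was 0.29 without knockout 2. Fat3 had 8 and 3 counts in knockouts and 6 and 11 in controls.

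**Figure D3:**
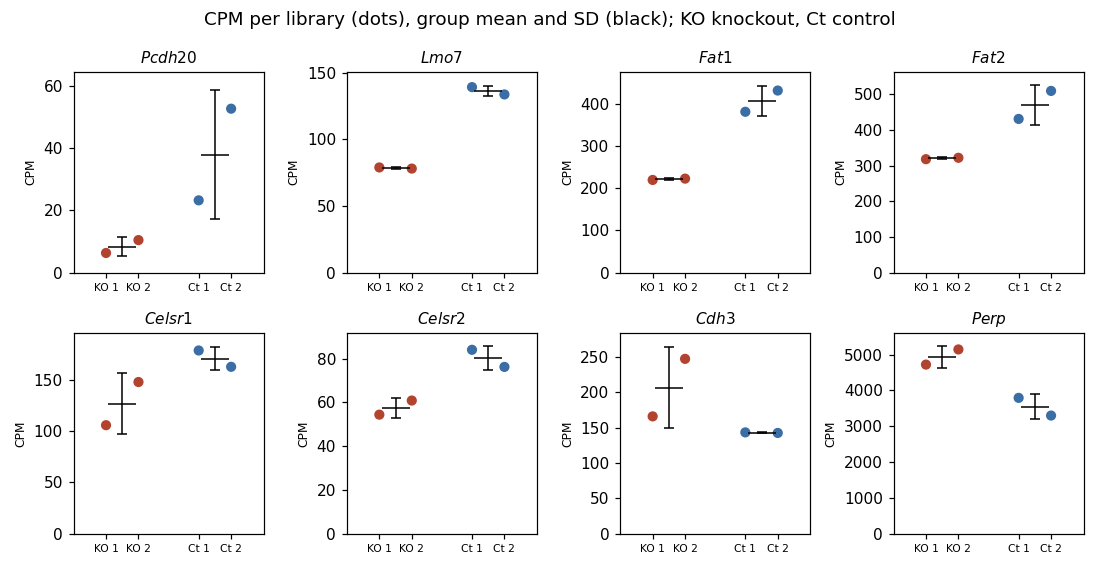
CPM of 8 listed genes in each library (dots: knockout red, control blue; axes start at 0), with the group mean and SD in black. Both knockout libraries lie below both controls for Pcdh20, Lmo7, Fat1, Fat2, Celsr1 and Celsr2, and above both controls for Cdh3 and Perp. All 8 genes drawn are free of overlap, whereas 18 of the 32 tested genes overlapped between groups. Of all tested genes, 23.6% had both knockouts below both controls and 21.3% above both.

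The 6 desmosomal cadherins had log2 fold changes from -0.44 to -0.04, on the side of 0 where 52.5% of all tested genes lay. Dsc2 alone had both knockout libraries below both controls, as had 23.6% of all tested genes. The signs of 4 of the 6 depended on single libraries: without control 1, Dsg1a, Dsc1 and Dsg2 were above 0 (0.16 for Dsg2), Dsg2 was 0.32 without knockout 1, and Dsg3 was 0.04 without control 2. Dsg2 was 0.11 with the trend on exon length and GC content removed. Desmocollin 3 (Dsc3) and desmoglein 3 (Dsg3), the forms of basal keratinocytes, were the abundant ones. Dsc3 measured 1777 and 1605 CPM in knockouts and 1729 and 1886 CPM in controls (log2 fold change -0.10 ± 0.13), and Dsg3 measured 1088 and 1065 CPM in knockouts and 1068 and 1324 CPM in controls (-0.15 ± 0.15). Dsc3 made up 95.4% and 96.8% of desmocollin CPM per kb in knockouts and 93.2% and 97.5% in controls. Dsg2 measured 16.6 and 29.3 CPM in knockouts and 26.6 and 20.5 CPM in controls, and Dsc2 measured 5.42 and 5.08 CPM in knockouts and 7.96 and 6.33 CPM in controls.

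Desmoglein 1a (Dsg1a) and desmocollin 1 (Dsc1), forms of suprabasal layers, varied within groups more than between them. Dsg1a measured 346 and 239 CPM in knockouts and 541 and 234 CPM in controls. Dsc1 measured 75.0 and 44.7 CPM in knockouts and 111 and 39.0 CPM in controls. For both, control 1 was the highest library and knockout 1 the next, the order in which the interfollicular differentiation markers also stood. In bulk RNA, fewer cells of a type and less RNA per cell cannot be told apart. Without control 1, the log2 fold changes of -0.41 for Dsg1a and -0.32 for Dsc1 turned to 0.32 and 0.62, and that of Dsc1 was 0.01 without knockout 2. Dsg1a has close relatives in Dsg1b and Dsg1c, whose reads the counting may have split.

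**Figure D4:**
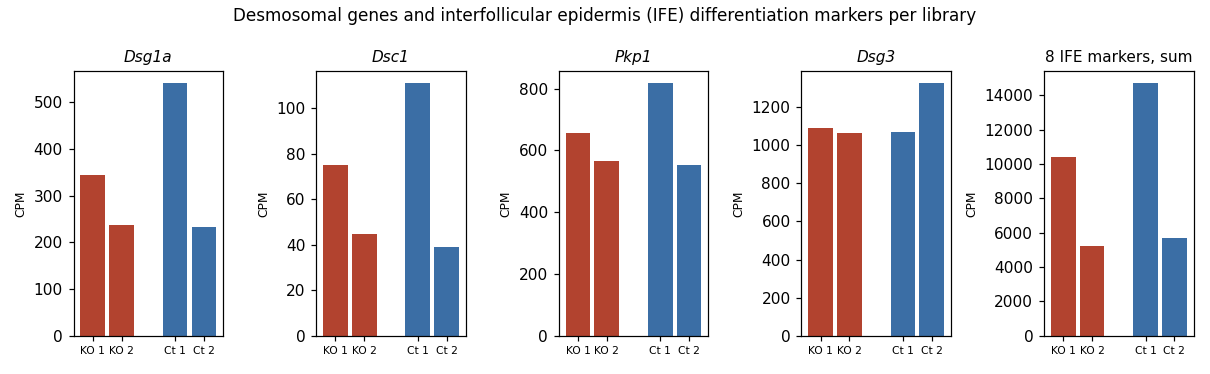
CPM per library (bars: knockout red, control blue; axes start at 0) of Dsg1a, Dsc1, Pkp1 and Dsg3, beside the summed CPM of 8 interfollicular epidermis (IFE) differentiation markers. Control 1 is the highest library for Dsg1a, Dsc1, Pkp1 and the marker sum, and control 2 is the highest for Dsg3.

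In the plaque and beside it, Perp was higher and Lmo7 lower in knockouts, while most plaque proteins differed little. Perp (ENSMUSG00000019851) measured 4719 and 5142 CPM in knockouts and 3791 and 3298 CPM in controls. Both knockouts were above both controls, and the log2 fold change was 0.48 ± 0.13 (1.39-fold). Dsp measured 4883 and 5523 CPM in knockouts and 6164 and 5733 CPM in controls (-0.19 ± 0.13). Plakophilin 3 (Pkp3) measured 816 and 832 CPM in knockouts and 762 and 750 CPM in controls (0.13 ± 0.12). Summed inner bulge and upper follicle markers were at 2860 and 2544 CPM in knockouts and 2173 and 1929 CPM in controls. This sum, like Perp and Cdh3, was higher in knockouts. It was highest in knockout 1, while Perp and Cdh3 were highest in knockout 2. Summed hair germ markers were at 218 and 274 CPM in knockouts and 254 and 310 CPM in controls, with 3 of 5 tested genes below 0. Summed dissociation stress markers were at 710 and 990 CPM in knockouts and 852 and 696 CPM in controls, highest in knockout 2. Of these, 1 of 9 genes was below 0, and the median log2 fold change was 0.39. The part of any of these markers in the Perp and Cdh3 values was not tested.

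Lmo7, a LIM-domain protein that connects afadin and alpha-actinin at adherens junctions (ENSMUSG00000033060, chromosome 14, 101729957 to 101934710, GRCm38), measured 79.0 and 78.1 CPM in knockouts and 139 and 134 CPM in controls. Libraries of a group were nearly equal and the groups did not overlap. The log2 fold change was -0.80 ± 0.11, a 1.74-fold lower level, and -0.60 with the trend on exon length and GC content removed. Plakoglobin (Jup), shared by both junction types, averaged 884 ± 52 CPM in knockouts and 830 ± 104 CPM in controls. Plakophilin 1 (Pkp1) measured 657 and 568 CPM in knockouts and 817 and 554 CPM in controls, again highest in control 1, and its log2 fold change of -0.16 was 0.15 without that library. Plakophilin 2 (Pkp2), the heart form, averaged 0.97 ± 0.53 CPM in knockouts and 1.12 ± 0.14 CPM in controls.

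Catenins of adherens junctions were nearly level between groups. Beta-catenin (Ctnnb1), which also carries WNT signals, measured 1287 and 1364 CPM in knockouts and 1137 and 1243 CPM in controls, a log2 fold change of 0.16 ± 0.12. Alpha-catenin (Ctnna1) measured 718 and 646 CPM in knockouts and 715 and 743 CPM in controls (-0.10 ± 0.12). The p120 catenin Ctnnd1, which keeps cadherins at the cell surface, averaged 39.4 ± 0.3 CPM in knockouts and 41.5 ± 2.8 CPM in controls. Its low level is uncertain: 61.2% of its exon bases are shared with Gm28635 on the same strand, which had 0 counts in every library, and the handling of reads in shared exons is not stated in the labels.

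Many listed genes are long, and longer genes were lower in knockouts across the whole table. Tested genes in the longest decile by exon length had a median log2 fold change of -0.19, and those in the shortest decile 0.12. Of the 32 listed genes, 11 are in the longest decile, and 9 of these 11 had a log2 fold change below 0. Set against the median of its own length decile, the log2 fold change was lower in 16 of the 32 genes and higher in 15, with Dsp level. Fat1 stood at -0.69 against that median, Lmo7 at -0.61, Fat2 at -0.36, Celsr2 at -0.28 and Celsr1 at -0.24. Pcdh20, of ordinary length, stood at -2.14. Ranked against exon length, the log2 fold changes of the 32 genes gave a Spearman correlation of -0.39, and those of the 14259 tested genes gave -0.25. These points share libraries and are not independent replicates.

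**Figure D5:**
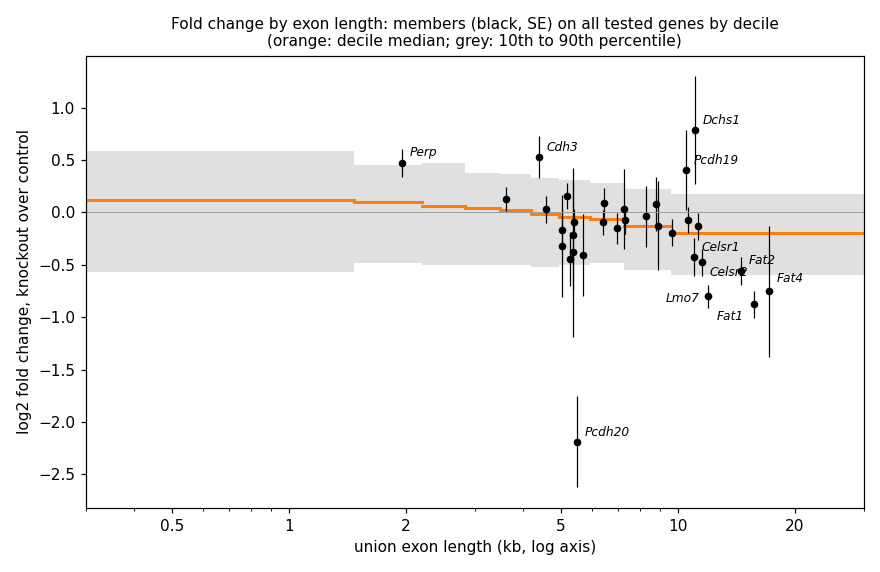
Log2 fold change, knockout over control, against union exon length (log axis, 0.3 to 30 kb) for the 32 genes (black, bars of 1 SE) over all tested genes by length decile (orange: median; grey: 10th to 90th percentile). Pcdh20, Fat1, Fat4 and Lmo7 lie below the grey band, and Cdh3, Pcdh19, Dchs1 and Perp lie above it.

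Genes that act with these junctions were taken from 9 lists of related adhesion, polarity and growth-control genes. In these lists the edgeR test called 0 genes in either direction, against 0.00701% of all tested genes. DESeq2 called 2 of them, Krt17 and Fjx1, both higher, where it called 0.262% of all genes it tested higher and 0.540% lower. In the list of planar polarity and Fat-Dachsous partners, 10 of 16 tested genes were below 0 (median -0.11). Fjx1, a Golgi kinase that phosphorylates FAT and Dachsous cadherin domains, measured 59.3 and 67.3 CPM in knockouts and 38.4 and 41.3 CPM in controls (log2 fold change 0.67 ± 0.13). Fjx1 is named for the smallest p among the higher genes of its list. Both its knockout values were above both controls, as for 21.3% of all tested genes. Wnk1, a kinase, measured 139 and 154 CPM in knockouts and 189 and 178 CPM in controls.

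Hippo pathway genes, some of which act downstream of FAT cadherins, had 16 of 22 tested genes below 0 (median -0.04). Amotl2, an angiomotin that binds YAP, measured 92.3 and 74.1 CPM in knockouts and 131 and 130 CPM in controls (log2 fold change -0.65 ± 0.14), and Tead2, a partner of YAP on DNA, 43.0 and 48.1 CPM in knockouts and 34.4 and 36.2 CPM in controls. The list of cadherin-bound and junction actin proteins had 15 of 28 below 0 (median -0.01). Vinculin (Vcl) measured 91.9 and 87.2 CPM in knockouts and 111 and 125 CPM in controls, and Pdlim7 26.1 and 30.8 CPM in knockouts and 19.7 and 20.2 CPM in controls. Each is named for the smallest p in its direction. Vcl was below without overlap, as were 23.6% of all tested genes, and Pdlim7 above, as were 21.3%.

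Tight and gap junction genes had 11 of 20 below 0 (median -0.11), with the scaffold Tjp1 at 56.6 and 52.6 CPM in knockouts and 71.5 and 67.8 CPM in controls. F11r, a junctional adhesion molecule, measured 271 and 327 CPM in knockouts and 204 and 220 CPM in controls. Desmosome partners had 3 of 10 below 0 (median 0.08), with Ppl at 357 and 328 CPM in knockouts and 531 and 324 CPM in controls and the keratin Krt17 at 720 and 845 CPM in knockouts and 555 and 483 CPM in controls. Krt17 is also 1 of the 6 inner bulge and upper follicle markers. Among enzymes that process cadherins, 9 of 13 were below 0 (median -0.11), with Pcsk6 at 60.3 and 46.7 CPM in knockouts and 80.7 and 83.8 CPM in controls and Mmp14 at 265 and 501 CPM in knockouts and 205 and 236 CPM in controls.

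Few further cadherins reached the count filter. Of 24, 4 were tested and all 4 were below 0, with Cdh24 at 4.64 and 4.07 CPM in knockouts and 8.32 and 9.52 CPM in controls. Of 11 further protocadherins, 2 were tested and both were below 0, with Pcdhgc3 at 96.6 and 78.0 CPM in knockouts and 108 and 127 CPM in controls. Exons shared within the protocadherin gamma cluster make the Pcdhgc3 counts uncertain. Of 8 repressors of E-cadherin, 2 were tested: Tcf3, at 124 and 161 CPM in knockouts and 132 and 147 CPM in controls, and Snai2, at 39.6 and 39.2 CPM in knockouts and 38.1 and 34.9 CPM in controls. Snai1, Zeb1, Zeb2 and Twist1 were at 0.72 CPM or less, and Snai3 and Twist2 had no count.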

How the data were processed

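RNA of bulge cells was sequenced from polyA-selected directional libraries, per the labels. The authors deposited whole-number counts, not normalized, for every gene. Per the submitters' processing notes, Trim Galore 0.6.0, cutadapt, FastQC, STAR 2.7.0e and DESeq2 1.26.0 were used with GRCm38 (mm10); for the counter, strand setting and annotation: not given in the sources used here. All 55536 identifiers matched GENCODE M21, which gave symbols, coordinates and exon lengths. Exons of 11 listed genes overlap another gene.

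In R 4.3.3, edgeR 4.0.16 (filterByExpr, TMM, robust quasi-likelihood fit, no covariates, Benjamini-Hochberg adjustment, threshold 0.05) compared 2 knockout with 2 control libraries over 14259 genes. The SE is the log2 fold change divided by the square root of F. Precision rests on the counts and on the spread between libraries of a group. The fit also draws each gene's variance towards a trend over all genes, so an SE is not the spread of that gene alone. Dsg1a, at 4980 to 9036 counts, had an SE of 0.39, and Lmo7, at 1631 to 3952 counts, an SE of 0.11. The edgeR step was tested on simulated data. Members and lists were chosen with earlier results of these data known. Library values are given for Lmo7, Pcdh20 and, in each of 6 roles, the 2 genes of highest CPM per kb and those of most negative and most positive fold change. They are given for Celsr1, Celsr2, Dsg1a, Dsc1, Pkp1, Pkp3 and Fat4, and for genes with few counts, after their values were seen. In the other lists, the gene of smallest p per direction is named, and Tcf3 and the untested repressors of E-cadherin were added after their values were seen. Alternatives covered other tools (DESeq2 1.42.0 and voom in limma 3.58.1), RLE or upper-quartile scaling, a filter of 50 counts in 2 libraries or none, a replicate block, leaving out each library, and a spline trend (4 degrees of freedom) on exon length and GC content removed, without and with the block.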

Additional observations from a re-analysis of the deposited data

How the results depend on the processing

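The alternatives that gave a value were 13, or 12 for Dchs1, Pcdh18, Pcdh19 and Pkp2, which did not pass the filter of 50 counts. Over these alternatives, 16 of the 32 tested genes kept the sign of their log2 fold change. Pcdh20 and Lmo7, chosen for their direction, are among them. Of the 16, 10 were below 0 (Pcdh20, Lmo7, Fat1, Fat2, Fat4, Celsr1, Celsr2, Dsp, Dsc2 and Dsc3) and 6 above 0 (Cdh3, Perp, Pkp3, Ctnnb1, Pcdh19 and Dchs1). The edgeR test called 1 gene over the whole table. The count was 430 without a count filter, 101 with DESeq2, 106 with the replicate number as a block, 78 with the block and the length and GC trend removed, and 1 to 65 when a library was left out. Of the listed genes, 0 were called; the count was 5 without a count filter (Cdh3, Pcdh20, Fat1, Fat2, Lmo7), 3 with DESeq2, 3 with the replicate block (Pcdh20, Fat1, Lmo7), 1 with the block and trend removal (Pcdh20) and 0 when any library was left out. The labels do not say that equal numbers pair mice. Deviations of knockout 1 and control 1 from their group means correlated at 0.12 over genes. The number of listed genes below 0 was 16 with the trend removed. The median of the listed genes, -0.13, was -0.008 with the trend removed and -0.005 with the block added. The median of all tested genes, -0.021, moved too, to 0.038 and 0.042, so the listed genes stayed below it. Their median against their own length decile, -0.015, ranged from -0.042 to 0.083 when a library was left out, with the highest value without knockout 1. Of the genes in related lists, 7 were called without a count filter, where 1.11% of all genes were called lower and 0.678% higher. With DESeq2 the count was 2, where 0.540% of all genes were called lower and 0.262% higher. The cause of these shifts was not tested. Having only 2 libraries in a group leaves no way to tell which of them is unusual.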
